A study of Mus musculus with 6 samples.

Results

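The cyclins and Cdc25 phosphatases drive the steps of the cell cycle, and 10 of them were followed in mouse embryonic stem cells that lack the deacetylase Sirt1 and in cells that carry it: the D-type cyclins Ccnd1, Ccnd2 and Ccnd3, the E-type cyclins Ccne1 and Ccne2, the A-type cyclin Ccna2, the B-type cyclins Ccnb1 and Ccnb2, and the phosphatases Cdc25a and Cdc25b. Their rows were taken by exact gene symbol from the array annotation, out of 18193 named genes on the array. Of the 10 genes, 9 had at least 1 probe set under exactly that symbol, with 23 probe sets between them, and Ccnb1 was not analysed here because the annotation used gave it none. Each gene was read on its brightest probe set (the highest mean over the 6 arrays), with its other probe sets beside it.

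The Sirt1-/- group had 3 samples of Sirt1-deficient R1 cells, and the Sirt1+/+ group had 3 samples of wild-type R1 cells. Both groups shared the (129X1 x 129S1)F1 background, gelatin-coated dishes (0.1%), and medium with 15% serum and 100 IU/ml leukaemia inhibitory factor, a cytokine that holds embryonic stem cells undifferentiated. The RNA of each sample went onto 1 Affymetrix array, whose probes lie near the 3' end of transcripts, and values are log2 levels after the authors' RMA processing, so that a difference of 1 is a 2-fold difference. The labels name a single knockout source and a single wild-type source, and do not say how the allele was made or whether samples of a genotype were separate cultures. The effect of losing Sirt1 and any other difference between those sources cannot be told apart. The p-values set the difference between groups against the spread among these samples, which may be only technical.

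A cyclin is the regulatory subunit of a cyclin-dependent kinase (CDK). D-type cyclins bind CDK4 and CDK6 and begin the phosphorylation of the retinoblastoma protein in G1, E-type cyclins bind CDK2 at the entry to S phase, cyclin A2 acts in S phase and G2, and B-type cyclins bind CDK1 for mitosis. Cdc25 phosphatases remove the inhibitory phosphates that the kinases Wee1 and Pkmyt1 place on CDKs. Mouse embryonic stem cells are known for a short G1 phase, with low D-type cyclin and steady cyclin E and A activity.

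Sirt1 RNA itself read 8.02, 7.94 and 8.20 in the Sirt1-/- arrays and 10.12, 10.13 and 10.23 in the Sirt1+/+ arrays (4.31-fold lower; limma, Benjamini-Hochberg adjusted p = 3.98e-05), on its 1 probe set. The sources used here do not place that probe set relative to any altered part of the gene. Array medians over all probe sets ran from 4.51 to 4.57, below the Sirt1 values of both groups. For Actb, the 3' control probe set minus the 5' one, which grows as RNA degrades, was 0.886 to 0.904 in Sirt1-/- arrays and 0.903 to 1.02 in Sirt1+/+ arrays, in log2 units. Undifferentiated stem cell markers were bright in both groups: the mean over 8 of them was 11.70 to 11.74 in Sirt1-/- arrays and 11.98 to 12.01 in Sirt1+/+ arrays. Of these 8 markers 4 fell and 0 rose in limma (also 0 before adjustment, at p under 0.05), with log2 changes of -0.90 for Nanog, -0.65 for Tdgf1 and -0.31 for Sox2. All 8 had a mean above the median of all genes. Of the genes above that median, 48.0% passed the same test in either direction, and 26.5% of those with a known position fell.

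Of the 9 measured cyclin and Cdc25 genes, 2 rose, 4 fell and 3 did not pass the test in Sirt1-/- cells (limma, Benjamini-Hochberg adjusted p under 0.05 over all genes). Ccnd1 had the largest fall and Cdc25a the largest rise, Ccne2, Ccna2 and Ccne1 were lower, Ccnd3 was higher, and Ccnd2, Ccnb2 and Cdc25b did not pass. That share of 66.7% stands against 30.0% of all 18193 genes called in the same test, 12.5% higher and 17.5% lower. It also stands against 48.0% of the 9096 genes with a mean above the median of all genes, where 8 of these 9 genes lie. The count rested on single arrays: without wild-type replicate 1, or without wild-type replicate 3, 3 of the 9 genes (33.3%) were called, against 22.6% and 25.4% of all genes. The 3 Sirt1-/- values lay wholly above or below the 3 Sirt1+/+ values for 7 of the 9 genes (77.8%), against 43.8% of all genes. That 43.8% includes dim genes, and the share among genes with a mean above the median was not counted. The genes were chosen with earlier results of these data known, so these shares are a description and not a test. Most changes were modest: 3 of the 9 exceeded 0.39, the median absolute log2 change of all genes called. The median log2 change was -0.15 over the 9 genes and -0.01 over all genes. With 3 arrays per group, the number of arrays limits the precision of each value.

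**Figure D1:**
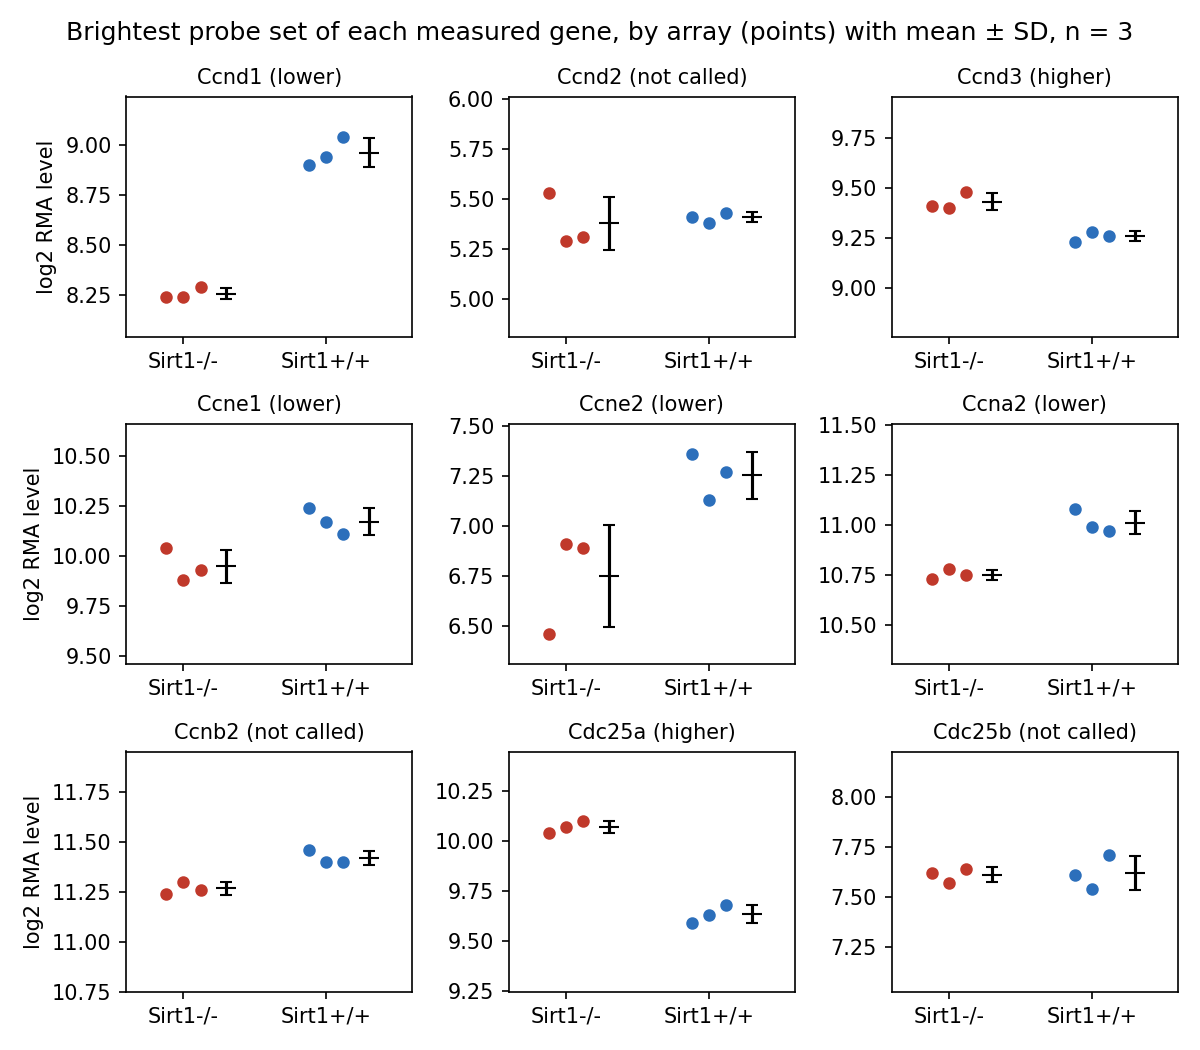
Log2 RMA level (y axis, each panel spanning 1.2 log2 units) of the brightest probe set of the 9 measured genes, by genotype (x axis); each point is 1 array, and the black mark and bar are the mean and SD (n = 3). The Sirt1-/- points sit below all Sirt1+/+ points for Ccnd1, Ccne1, Ccne2, Ccna2 and Ccnb2 and above them for Ccnd3 and Cdc25a; they overlap for Ccnd2 and Cdc25b.

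Ccnd1, which encodes cyclin D1, the D-type cyclin most tied to growth factor signals, was lower in the knockout. It read 8.24, 8.24 and 8.29 in Sirt1-/- arrays and 8.90, 8.94 and 9.04 in Sirt1+/+ arrays. All 3 Sirt1-/- values lay below all 3 Sirt1+/+ values, with a gap wider than the range within either group. The group means were 8.25 ± 0.03 in Sirt1-/- and 8.96 ± 0.07 in Sirt1+/+ arrays (SD, n = 3 each). Their difference was -0.71 on the log2 scale (SE 0.05, 95% interval -0.84 to -0.58), a level 1.63-fold lower (limma, Benjamini-Hochberg adjusted p = 0.000262). Its other probe sets, both well above the median level, gave the same direction: 7.72, 7.72 and 7.66 in Sirt1-/- against 8.49, 8.43 and 8.43 in Sirt1+/+ arrays on the next brightest (log2 change -0.75), and 7.63, 7.75 and 7.84 against 8.44, 8.26 and 8.43 on the dimmest (log2 change -0.63). Each of the 3 probe sets was called when all probe sets were tested (limma, adjusted p = 0.000313 to 0.00231), where 19.8% of 45037 probe sets were.

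Many listed markers of endoderm, a differentiated cell type that arises in such cultures, were also lower in Sirt1-/- arrays. Of 12 listed endoderm genes 9 fell and 0 rose in limma (also 0 before adjustment, at p under 0.05), and the list mean was 5.03 to 5.18 in Sirt1-/- arrays against 6.23 to 6.27 in Sirt1+/+ arrays. Over all genes, 30.0% were called in the same test and 17.5% fell. The secreted proteoglycan core Srgn, the endocytic receptor Cubn and the endocytic adaptor Dab2 had log2 changes of -2.38, -2.24 and -1.80, and 3 of the 12 genes had a mean above the median of all genes. Other probe sets went up to -1.27 for Cubn and -0.22 for Dab2. Among the other genes that fell, they went up to -1.15 for Col4a1, -0.04 for Gata6, 0.11 for Pdgfra and 0.16 for Sox7. Sox17 had -0.78 on its brightest probe set and -1.95 on its other. Fibroblast markers, which would report feeder cells, had list means of 4.04 to 4.17 in Sirt1-/- and 4.19 to 4.23 in Sirt1+/+ arrays, with 1 higher (Twist1, 0.48) and 2 lower (Thy1, -1.07, and Pdgfrb, -0.50) of 10. Their share called, 30.0%, is that of all genes. Of 7 measured neural markers 2 rose and 3 fell (71.4% called), with list means of 5.48 to 5.53 in Sirt1-/- and 5.62 to 5.70 in Sirt1+/+ arrays (Nefl -0.84, Ncam1 -0.81 on its brightest probe set but up to 0.45 on another, and Tubb3 0.76). The part of any of these markers in the Ccnd1 difference was not tested. In RNA from whole cultures, fewer cells of a type and less RNA per cell cannot be told apart.

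Ccnd2, which encodes cyclin D2, was dim and did not pass. On its brightest probe set it read 5.53, 5.29 and 5.31 in Sirt1-/- and 5.41, 5.38 and 5.43 in Sirt1+/+ arrays. The groups overlapped, with 1 Sirt1-/- array above all Sirt1+/+ arrays and the other 2 below them. The log2 change was -0.03, with a 95% interval of -0.21 to 0.15 (limma, Benjamini-Hochberg adjusted p = 0.805). Its 7 probe sets had means from 2.48 to 5.39 and log2 changes from -0.24 to 0.24, and none was called. The lower quartile of the arrays was 3.16 to 3.24, so the dimmest Ccnd2 probe sets (2.48 and 2.90) lay below it.

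Ccnd3, which encodes cyclin D3, was higher by a small margin. It read 9.41, 9.40 and 9.48 in Sirt1-/- and 9.23, 9.28 and 9.26 in Sirt1+/+ arrays. The groups did not overlap, and the log2 change was 0.18 (SE 0.05; 95% interval 0.06 to 0.29), or 1.13-fold (limma, Benjamini-Hochberg adjusted p = 0.0301). This call was lost when any 1 of the 6 arrays was left out (adjusted p = 0.0589 to 0.104, log2 change 0.15 to 0.19). Its 2 other probe sets were far dimmer, at means of 5.43 and 3.42, with log2 changes of 0.18 and -0.07, and did not pass. With the probe sets averaged, the log2 change was 0.10 (adjusted p = 0.308).

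**Figure D2:**
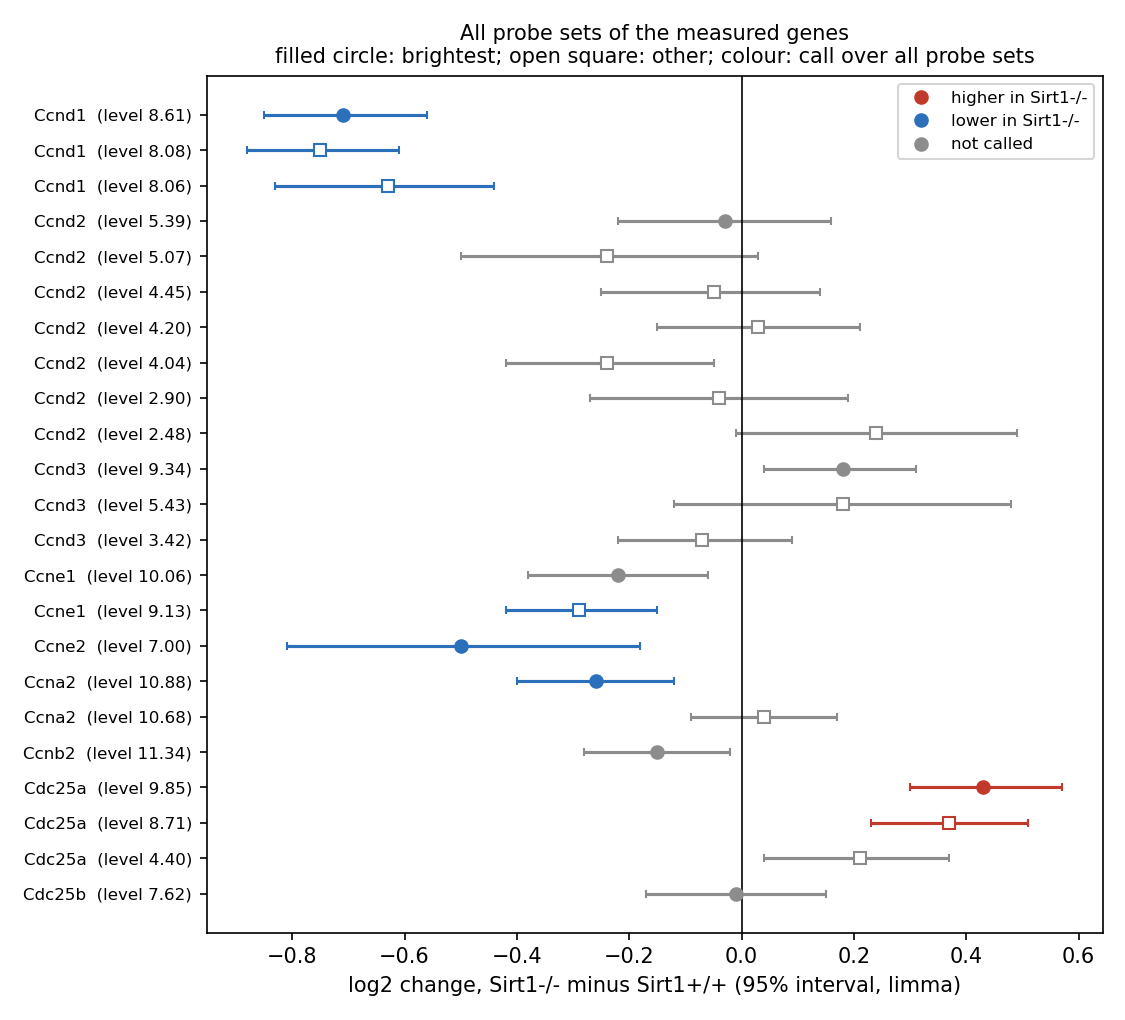
Log2 change (x axis, Sirt1-/- minus Sirt1+/+) with its 95% interval from limma for each of the 23 probe sets, down the page by gene with the mean log2 level in brackets; filled circles are the brightest probe set of a gene and open squares the others, coloured by the call over all probe sets. The 3 Ccnd1 probe sets lie between -0.75 and -0.63 and the 3 Cdc25a probe sets between 0.21 and 0.43, while the 2 Ccna2 probe sets stand apart at -0.26 and 0.04; over all probe sets, 2 were called higher and 6 lower.

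Both E-type cyclins, which activate CDK2 at the G1/S transition, were lower. Ccne1 read 10.04, 9.88 and 9.93 in Sirt1-/- arrays and 10.24, 10.17 and 10.11 in Sirt1+/+ arrays on its brightest probe set. The groups were separated by less than the range within either, and the log2 change was -0.22 (SE 0.06; 95% interval -0.37 to -0.07; limma, Benjamini-Hochberg adjusted p = 0.0403). That probe set carries the suffix by which the array maker marks probes that may bind other transcripts. The other Ccne1 probe set, without it, read 8.97, 9.03 and 8.97 in Sirt1-/- and 9.27, 9.33 and 9.24 in Sirt1+/+ arrays, a log2 change of -0.29 and 1.22-fold lower. With such probe sets avoided where a gene had another, the adjusted p of Ccne1 was 0.00596. On the brightest probe set the call was lost when any array other than knockout replicate 1 was left out (adjusted p = 0.0501 to 0.13).

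Ccne2 read 6.46, 6.91 and 6.89 in Sirt1-/- and 7.36, 7.13 and 7.27 in Sirt1+/+ arrays, on its 1 probe set. The groups did not overlap, although knockout replicate 1 was well below the other 2 knockout arrays. The log2 change was -0.50 (SE 0.13; 95% interval -0.82 to -0.17), which is 1.41-fold lower (adjusted p = 0.0328 in limma). Without knockout replicate 1 it was -0.35 and still called (adjusted p = 0.0308). The call was lost without wild-type replicate 1 (log2 change -0.44, adjusted p = 0.106) and without wild-type replicate 3 (-0.49, adjusted p = 0.0841).

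Ccna2, which encodes the cyclin of S phase and G2, gave different answers on its 2 bright probe sets. The brightest read 10.73, 10.78 and 10.75 in Sirt1-/- and 11.08, 10.99 and 10.97 in Sirt1+/+ arrays. These groups did not overlap, and the log2 change was -0.26 (SE 0.05; 95% interval -0.38 to -0.14), which is 1.20-fold lower (adjusted p = 0.0091 in limma). The other read 10.75, 10.66 and 10.68 in Sirt1-/- and 10.65, 10.67 and 10.65 in Sirt1+/+ arrays, a log2 change of 0.04 with overlapping groups. Within an array, the brightest minus the other was -0.02, 0.12 and 0.07 in Sirt1-/- and 0.43, 0.32 and 0.32 in Sirt1+/+ arrays. The fall was seen on 1 of the 2 probe sets, and their mean had a log2 change of -0.11 that did not pass (limma, adjusted p = 0.119).

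Ccnb2, a B-type cyclin of mitosis, was bright and did not pass. It read 11.24, 11.30 and 11.26 in Sirt1-/- and 11.46, 11.40 and 11.40 in Sirt1+/+ arrays. The groups did not overlap, but the log2 change of -0.15 (SE 0.05; 95% interval -0.26 to -0.04) did not pass (limma, Benjamini-Hochberg adjusted p = 0.0557). It passed under 3 other settings, with a log2 change of -0.18 after repeated quantile normalisation (adjusted p = 0.0267), -0.15 without the dimmest 40% of genes (0.0169) and -0.15 with an intensity trend and a robust variance model (0.000438).

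Of the Cdc25 pair, Cdc25a passed the test and Cdc25b did not. Cdc25a, which activates CDK2 and CDK1 complexes from the G1/S transition onward, was higher: it read 10.04, 10.07 and 10.10 in Sirt1-/- and 9.59, 9.63 and 9.68 in Sirt1+/+ arrays. The gap between the groups was several times the range within each. Group means were 10.07 ± 0.03 in Sirt1-/- and 9.63 ± 0.04 in Sirt1+/+ arrays (SD, n = 3 each), which differ by 0.43 on the log2 scale (SE 0.05; 95% interval 0.32 to 0.55), or 1.35-fold (limma, Benjamini-Hochberg adjusted p = 0.000977). A second bright probe set read 8.94, 8.90 and 8.84 in Sirt1-/- and 8.56, 8.51 and 8.50 in Sirt1+/+ arrays, a log2 change of 0.37 that was also called (limma over all probe sets, adjusted p = 0.00529). The dim probe set of Cdc25a, with a mean of 4.40, had a log2 change of 0.21 and did not pass (adjusted p = 0.0835).

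Cdc25b, known for starting the activation of CDK1 in G2, read 7.62, 7.57 and 7.64 in Sirt1-/- and 7.61, 7.54 and 7.71 in Sirt1+/+ arrays, on its 1 probe set. The groups overlapped, and the log2 change was -0.01 with a 95% interval of -0.15 to 0.13 (limma, Benjamini-Hochberg adjusted p = 0.921). Cdc25c, outside the 10 genes and the remaining Cdc25 phosphatase of the mouse, read 8.45, 8.42 and 8.56 in Sirt1-/- and 8.51, 8.52 and 8.58 in Sirt1+/+ arrays (log2 change -0.06, adjusted p = 0.527).

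RefSeq promoters on GRCm38.p6 were at hand for 6 of the 10 genes (Ccnd3, Ccne1, Ccnb1, Ccnb2, Cdc25a and Cdc25b), and the 250 bases upstream of the start are shown for the Cdc25 pair, of which Cdc25a rose and Cdc25b did not pass, and for Ccnb2 as a mitotic gene beside them. Capitals mark matches, on either strand, to the CCAAT box (CCAAT, bound by NF-Y), to an E2F site (TTTGGCGC, TTTCCCGC, TTTGCCGC or TTTCGCGC) or to the cell-cycle genes homology region (TTTGAA or TTCGAA). The positions are chr9:109875329-109875578 on the plus strand for Cdc25a, chr2:131186698-131186947 on the plus strand for Cdc25b, and chr9:70421555-70421804 on the minus strand for Ccnb2, each written 5′ to 3′ along the gene.
Cdc25a: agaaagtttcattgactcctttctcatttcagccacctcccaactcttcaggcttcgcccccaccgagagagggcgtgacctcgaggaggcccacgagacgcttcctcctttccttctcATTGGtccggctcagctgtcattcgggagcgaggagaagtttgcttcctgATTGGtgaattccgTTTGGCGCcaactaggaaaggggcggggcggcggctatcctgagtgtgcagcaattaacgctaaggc
Cdc25b: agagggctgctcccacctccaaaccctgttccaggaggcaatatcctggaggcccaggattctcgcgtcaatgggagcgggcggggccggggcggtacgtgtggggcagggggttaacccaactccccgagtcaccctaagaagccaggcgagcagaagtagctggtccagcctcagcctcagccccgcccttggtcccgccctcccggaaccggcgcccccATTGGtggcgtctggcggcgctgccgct
Ccnb2: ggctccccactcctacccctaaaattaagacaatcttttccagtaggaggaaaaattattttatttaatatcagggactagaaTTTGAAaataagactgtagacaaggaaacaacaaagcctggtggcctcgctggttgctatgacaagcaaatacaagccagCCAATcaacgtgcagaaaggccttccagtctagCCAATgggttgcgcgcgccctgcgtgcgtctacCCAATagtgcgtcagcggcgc

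The Cdc25a window held 1 E2F match, TTTGGCGC, 67 to 60 bases before the start, and 2 CCAAT boxes on the opposite strand. Of 32851 RefSeq promoter windows of the same length, 1.86% held 1 of the E2F words, 33.8% a CCAAT box and 17.1% a homology-region word. The Cdc25b window held 1 CCAAT box. The Ccnb2 window held 3 CCAAT boxes, beginning 87, 54 and 21 bases before the start, and 1 TTTGAA beginning 167 bases before it. No words matched in the window of Ccne1, and the matches are a description of these letters and not of bound sites.

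Whether paralogues changed unequally was asked within each array, as the difference between their log2 levels, for 5 of 6 pairs (the pair of Ccnb1 and Ccnb2 was not analysed). Because probe sets differ in brightness, a difference between paralogues has no meaning of its own, and only its shift between genotypes is read. Ccnd1 minus Ccnd3 was -1.18, -1.17 and -1.19 in Sirt1-/- against -0.33, -0.33 and -0.22 in Sirt1+/+ arrays, a shift of -0.88. The shift was -0.68 for Ccnd1 minus Ccnd2, at 2.71, 2.95 and 2.98 in Sirt1-/- against 3.50, 3.56 and 3.61 in Sirt1+/+ arrays. It was 0.45 for Cdc25a minus Cdc25b, at 2.42, 2.50 and 2.46 in Sirt1-/- against 1.98, 2.09 and 1.97 in Sirt1+/+ arrays. In these 3 pairs the groups did not overlap, and a two-sided exact permutation test returned p = 0.1, which is as low as 3 arrays against 3 can go (0.167 after Benjamini-Hochberg adjustment over 5 pairs). The shift of Ccnd2 minus Ccnd3 was -0.21 (exact permutation p = 0.2, adjusted 0.25) and that of Ccne1 minus Ccne2 was 0.28 (exact permutation p = 0.3, adjusted 0.3), both with overlapping groups. The falls of the E-type pair were not separated by this test, which cannot pass a threshold of 0.05 at this size.

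**Figure D3:**
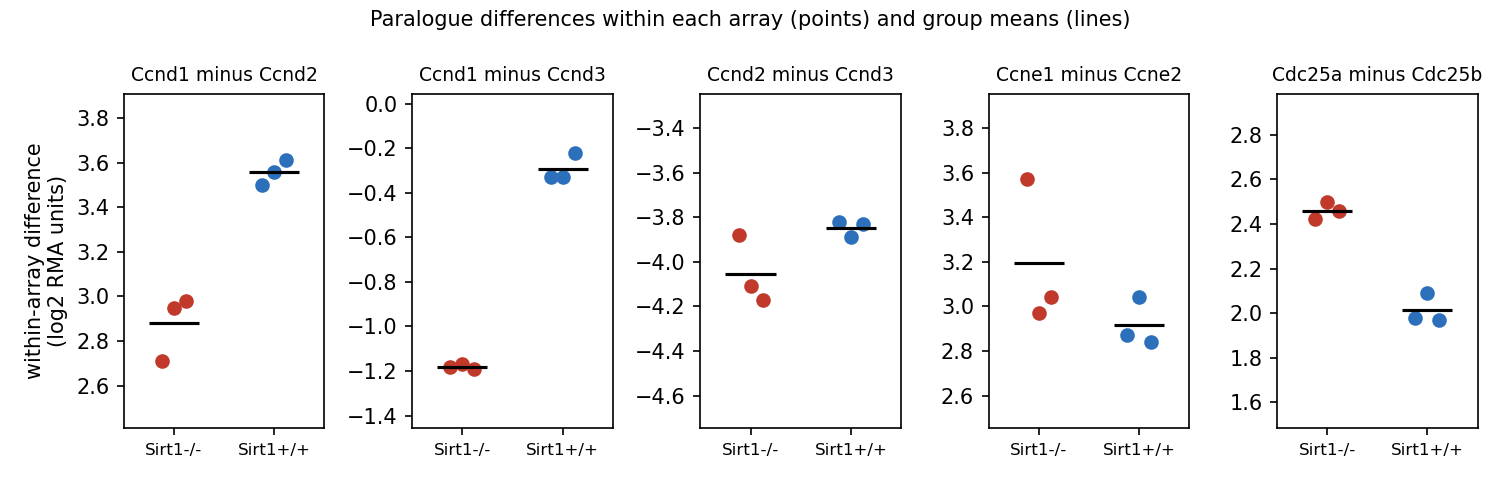
Within-array difference between paralogues (y axis, log2 RMA units, each panel spanning 1.5 units) by genotype (x axis), with 1 point per array and a line at the group mean (n = 3). The groups are apart for Ccnd1 minus Ccnd2, Ccnd1 minus Ccnd3 and Cdc25a minus Cdc25b, and overlap for Ccnd2 minus Ccnd3 and Ccne1 minus Ccne2.

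The gene patterns most like that of Ccnd1, by Pearson's r over the 6 arrays among 9095 other genes with a mean above the median, were those of the phosphatase Ppm1h (0.9994), the chromatin reader Zmynd8 (0.9993) and the desmosome protein Dsp (0.9991). All 3 fell, with log2 changes of -1.65, -0.64 and -1.13, and 312 genes reached an r above 0.99. With 6 arrays in 2 separated groups, such an r mostly restates the difference between groups, so it is given as a description.

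The partners and regulators of these proteins were then counted in 9 lists. Over the 131 genes measured in them, 19 rose and 47 fell, while 65 did not pass, with a median log2 change of -0.11. The 50.4% called is near the 48.0% called among all genes with a mean above the median, where 121 of the 131 lie, and 35.9% fell against 26.5% of such genes with a known position. Among the CDKs and their binding partners, 2 rose and 4 fell of 8. That share called is above the 48.0% of genes with a mean above the median, where 7 of the 8 lie. Cdk6, a kinase partner of D-type cyclins, had the largest fall of the list: it read 4.72 to 5.19 in Sirt1-/- and 6.35 to 6.62 in Sirt1+/+ arrays, a log2 change of -1.52 and 2.88-fold lower (limma, Benjamini-Hochberg adjusted p = 0.0004). Its other probe sets had log2 changes up to 0.00. Cdk4, the other kinase partner of D-type cyclins, rose by 0.17 (adjusted p = 0.0297). Cks1b, a small CDK subunit needed for the breakdown of p27, rose by 0.42, Cdk7, the CDK-activating kinase, had a log2 change of -0.21 on its brightest probe set and up to 0.15 on another, Cdk1 had -0.20 (adjusted p = 0.0136), and Cdk2 had 0.15 and did not pass (0.0977).

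Among 7 CDK inhibitors 3 rose and 3 fell (85.7% called). Cdkn2a, which encodes the CDK4 and CDK6 inhibitor p16 and the p53 activator Arf, read 6.96, 7.09 and 7.20 in Sirt1-/- and 5.11, 5.09 and 5.30 in Sirt1+/+ arrays, which is 1.91 higher on the log2 scale (adjusted p = 5.9e-05 in limma). It has 1 probe set, and the sources used here do not say which of those products its probes match. Cdkn2c, another inhibitor of CDK4 and CDK6, had a log2 change of -0.80, and Cdkn1c, which encodes p57, had -0.63. Of 18 other cyclins 2 rose and 7 fell. That share called is near the 48.0% of genes with a mean above the median, where 13 of the 18 lie. Ccnjl, a cyclin J-like gene, had a log2 change of -0.66, the germ cell cyclin Ccna1 had -0.61 at a low level (means of 3.90 in Sirt1-/- and 4.51 in Sirt1+/+ arrays), and Ccnf, an F-box protein that directs protein breakdown, had -0.57.

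Of 14 genes in the list of Cdc25c and of the kinases and regulators around Cdc25, 1 rose and 6 fell. That share called is near the 48.0% of genes with a mean above the median, where all 14 lie. Plk3, a stress-responsive polo-like kinase, read 7.84, 7.88 and 7.99 in Sirt1-/- and 6.24, 6.36 and 6.41 in Sirt1+/+ arrays, 2.96-fold higher (log2 change 1.57; limma, Benjamini-Hochberg adjusted p = 5.11e-05). Bora, a cofactor by which Aurora A activates Plk1, read 7.79, 8.01 and 7.92 in Sirt1-/- and 9.37, 9.31 and 9.44 in Sirt1+/+ arrays, 2.77-fold lower, and its other probe set had a log2 change of -1.23. The checkpoint kinase gene Atr had -0.63, with other probe sets up to -0.01. Wee1, which opposes Cdc25, had -0.28 (adjusted p = 0.00704), and Chek1, whose kinase marks Cdc25a for breakdown, had -0.02 on its brightest probe set and did not pass (0.761), with other probe sets up to 0.38.

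Of 13 retinoblastoma and E2F factors 1 rose and 5 fell (46.2% called). Tfdp2, a dimerisation partner of E2F factors, had a log2 change of -0.91, Rbl1, which encodes p107, -0.56, and Rb1, which encodes the retinoblastoma protein, -0.47. Other probe sets of these genes did not all follow, reaching 0.26 for Tfdp2, 1.65 for Rbl1 and 0.00 for Rb1. Rbl2, which encodes p130 and lies on chromosome 8, was the gene of the list that rose (0.42). Of 8 genes of the DREAM complex, B-Myb and FoxM1, which act on promoters of mitotic genes, 2 fell and 0 rose in limma (also 0 before adjustment, at p under 0.05): Mybl2 (-0.46) and Foxm1 (-0.28, with other probe sets up to 0.00). That share called is below the 48.0% of genes with a mean above the median, where all 8 lie. Of such genes with a known position, 26.5% fell.

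Of 24 genes of cyclin and Cdc25 degradation 4 rose and 5 fell (37.5% called). Fbxw7, the F-box protein that targets cyclin E, had a log2 change of -0.72, with -0.54 on its other probe set, and Fzr1, an activator of the anaphase-promoting complex, had -0.57. Anapc10, a subunit of that complex on chromosome 8, rose by 0.53. Of 20 measured S-phase targets of E2F 4 rose and 5 fell (45.0% called), and the list median was -0.01. The replication genes Gins2 (0.64) and Cdt1 (0.37), with Mcm5 (0.22), lie on chromosome 8, and without genes of that chromosome 1 rose, Tk1 (0.46), and 5 fell of 17. Chromosome 8 also held 3 of the 24 degradation genes, of which 2 rose and Cdc16 (-0.14) did not pass, and 0 of the 9 measured cyclin and Cdc25 genes. Not every listed gene of this chromosome rose: the endoderm marker Col4a1 (-1.29) and the stem cell marker Zfp42 (-0.23) fell, while the neural marker Tubb3 (0.76) rose. The share called among all genes of this chromosome was not counted. Over the whole array, leaving this chromosome out took genes called higher from 2270 to 1931 and genes called lower from 3192 to 3062.

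Of 19 genes of G2 and mitosis 2 rose and 10 fell (63.2% called, against 48.0% of the genes with a mean above the median, where all 19 lie), with a median log2 change of -0.15. The kinesins Kif11 and Kif23 had -0.54 and -0.41, and Cenpe, a kinesin of the kinetochore, had -0.49, while another Kif23 probe set reached 0.13. The log2 change of Ccnb2, -0.15, lay at the median of this list, as the plot of the cell-cycle lists shows.

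**Figure D4:**
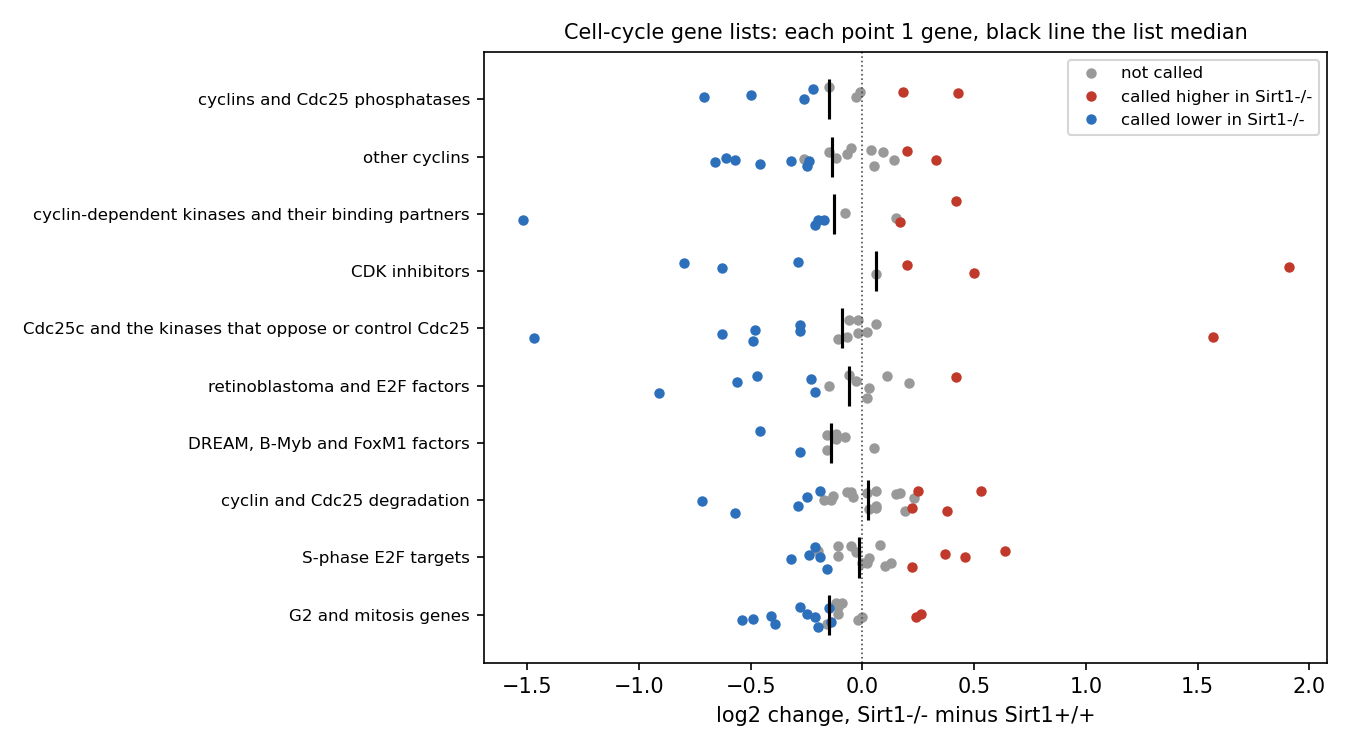
Log2 change (x axis, Sirt1-/- minus Sirt1+/+) of each measured gene (1 point, brightest probe set) of the cyclin and Cdc25 genes and of 9 other cell-cycle lists, with the list median as a black line and colour by the limma call over all genes. The list medians lie between -0.15 and 0.06, and Cdkn2a (1.91), Plk3 (1.57), Cdk6 (-1.52) and Bora (-1.47) lie farthest from 0.

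Position along the chromosome was compared with the 10 nearest measured genes on each side, among genes with a mean above the median. Around Cdc25a on chromosome 9, 5 of 20 neighbours rose and 2 fell, with a median log2 change of 0.00 and a highest of 0.42, against 0.43 for Cdc25a itself. Around Ccnd1, near the end of chromosome 7, 10 neighbours were found, all on 1 side, of which 2 rose and 3 fell, with a lowest log2 change of -0.62 against -0.71 for Ccnd1. Around Ccne1, 9 of 20 fell and 0 rose in limma (1 before adjustment, at p under 0.05), with a median of -0.13. Of 20 neighbours each, 1 rose and 8 fell around Ccna2 (median -0.14), and 2 rose and 9 fell around Ccnb2 (median -0.19). Around Ccne2, whose own log2 change was -0.50, 5 rose and 5 fell (median -0.02), and around Ccnd3, whose own was 0.18, 2 rose and 5 fell (median -0.04). For Ccnd2 and Cdc25b, which did not pass, 4 rose and 7 fell (median -0.07) and 5 rose and 3 fell (median 0.03). Over all 9078 such genes with a known position, 21.5% rose and 26.5% fell, with a median of -0.02.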

How the data were processed

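RNA of 3 Sirt1-/- and 3 Sirt1+/+ samples, grouped by the genotype in the titles, was measured on 1 array each. The deposited values are log2 levels which, per the submitters' processing notes, the authors obtained by RMA in Partek 6.5, and the log2 scale was taken from their range. The sources used here do not give the RMA settings. Of 45101 probe sets, 64 controls and 10092 with several or no gene symbols were left out, and each of 18193 genes was read on its brightest probe set, with no filter on dim ones.

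The test of each gene was limma's (version 3.58.1, R 4.3.3; lmFit, then eBayes, two-sided), with both genotypes as the only terms and Benjamini-Hochberg adjustment over all genes at 0.05. The procedure was tested on simulated data. Paralogue differences had an exact permutation test (SciPy 1.17.1). Gene order and promoters came from RefSeq on GRCm38.p6, and by Entrez identifier 18028 genes had a chromosome. Listed symbols absent from the annotation were looked up among synonyms. Named genes were the measured members, up to 3 called genes of each list with the largest change, and the 3 genes most like Ccnd1, and any others were picked with their values in view. The members and lists were chosen with earlier results of these data known. Replicate numbers were not taken as pairs. The alternatives tried are given at the end.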

Additional observations from a re-analysis of the deposited data

How the results depend on the processing

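Of 16 other settings, Ccnd1 and Cdc25a kept their direction and their call in all 16, and Ccna2 in 15. Those 15 read Ccna2 on its brightest probe set alone. The setting that averaged its 2 probe sets lost the call (log2 change -0.11, limma adjusted p = 0.119). Ccne2 lost its call in 4, Ccne1 in 8 and Ccnd3 in 10, and Ccnb2 gained one in 3. Leaving out each array in turn gave 3 to 5 called members (3 without wild-type replicate 1 or wild-type replicate 3, against 6) and 4104 to 4753 called genes. Like-numbered arrays share only a number: their deviations from the group means correlated across genes at 0.0515, -0.0865 and 0.198, and not every array correlated best with its own number. The replicate number as a block gave 4 called members and 4700 called genes, with Ccnd3 (adjusted p = 0.0776) and Ccne2 (0.0736) lost. An adjusted p under 0.01 left 3 members and 3356 genes, and all probe sets in place of genes gave 8912 calls. With arrays centred on their medians, Ccne1 was not called (log2 change -0.20, adjusted p = 0.0519). With the probe sets of a gene averaged, the shift was -0.79 for Ccnd1 minus Ccnd3 and 0.35 for Cdc25a minus Cdc25b, which then includes dim probe sets. The log2 changes of Ccnd2 and Cdc25b, never called, ranged from -0.11 to 0.01 and from -0.05 to 0.04. Leaving out 1 array in turn moved the shifts of the 5 paralogue pairs within -0.73 to -0.59 (Ccnd1 minus Ccnd2), -0.90 to -0.85 (Ccnd1 minus Ccnd3), -0.29 to -0.15 (Ccnd2 minus Ccnd3), 0.09 to 0.39 (Ccne1 minus Ccne2) and 0.42 to 0.48 (Cdc25a minus Cdc25b).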
